A study of Mus musculus with 4 samples.

Results

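Mast cells, basophils and eosinophils are granule-bearing cells of allergy and of the defence against parasites, and 9 genes of their granules, receptors and mediators are described here. They were chosen by name, as known genes of these 3 lineages: the proteases Cpa3, Mcpt8, Prss34 and Gzmb, the histamine enzyme Hdc, the IgE receptor chains Fcer1a and Ms4a2, and the eosinophil granule proteins Prg2 and Epx. All 9 were found among the 45232 gene rows of the files, and 7 of them were among the 15320 genes with enough counts to test. Prss34 and Epx had counts in too few libraries and were described without a test.

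RNA was sequenced from LSK cells, the lineage-negative cells with Kit and Sca-1 on their surface, which hold mouse haematopoietic stem cells and their earliest progeny. In both groups the cells carried GFP, came from transplanted long-term stem cells and were sorted from the recipients 3 months after transplantation. The donor stem cells were either miR-99 KD, a knockdown of the microRNA miR-99, or the control labelled Scr. Each group had 2 mice and 2 libraries, called Scr 1 and Scr 2 for the control and KD 1 and KD 2 for miR-99 KD. The labels give no strain, sex or age and no vector for the knockdown. Rows below the gene counts in the files carry other names than the titles: Scr-2 in the file titled Scr 1, Zip99a-2 in that titled KD 1 and Zip99a-1 in that titled KD 2. The totals under these 3 names equal the gene counts of those files. A further set of totals named Scr-1, in the file titled KD 2, equals none of the 4 libraries. Group names match where both are given but the numbers differ, and names here follow the titles. The labels do not tie each library to its own mouse, and p-values may then measure only technical spread between these libraries.

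Mast cells, basophils and eosinophils all derive from stem cells through progenitors that use the transcription factors Gata1 and Gata2. Mast cells mature in tissues and keep Kit, the receptor for stem cell factor, whereas basophils and eosinophils mature in the marrow and lose it. Mast cells and basophils bind IgE through a receptor whose alpha chain is Fcer1a, whose beta chain is Ms4a2 and whose gamma chain is Fcer1g. When IgE is cross-linked by antigen, they release stored histamine and proteases from their granules.

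The libraries held 27295197 to 32350590 gene counts. Levels are given as CPM, the usual unit of counts scaled to library size, with TMM-scaled library totals. A floor of 3 counts, used where a count was 0, corresponded to 0.0897 to 0.114 CPM. That floor and the counting intervals below cover counting error only. The sort markers were present, with Kit at 670 to 1280 CPM and Ly6a, which encodes Sca-1, at 12.4 to 46.5 CPM. The gene counts hold no mature microRNA levels, so the knockdown itself was not checked here. In bulk RNA, fewer cells of a type and less RNA per cell cannot be told apart.

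The sequences of the miR-99 family are shown because their seed defines which messages could be bound. The titles name only miR-99 and the rows below the counts Zip99a, so which members of the family the knockdown reached is not known here. The 3 mature 5p microRNAs of the family share bases 2 to 8, the seed, given in capitals (RefSeq, GRCm38.p6). They lie on the plus strand at chr16:77598940-77598961, chr17:17830194-17830215 and chr9:41531437-41531458, in the order shown.
mmu-miR-99a-5p: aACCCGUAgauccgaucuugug
mmu-miR-99b-5p: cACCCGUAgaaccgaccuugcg
mmu-miR-100-5p: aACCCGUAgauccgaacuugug
The complement of the seed, TACGGGT, was in the 3′ end, after the stop codon, of 0 of the 9 genes, and its last 6 bases, ACGGGT, were in 0 of the 9 as well. Of 21037 genes with such an end in GENCODE M21, 1.19% held the 7-base site and 5.82% the 6-base site. The longest ends of the 9 genes ran from 82 bases in Mcpt8 to 1950 in Ms4a2.

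Of the 9 genes, 6 were highest in KD 1, which were Mcpt8, Prss34, Hdc, Ms4a2, Prg2 and Epx, and 3 were highest in KD 2, which were Cpa3, Fcer1a and Gzmb. None was highest in a Scr library. This held under TMM, RLE, upper quartile and total-count scaling, although Fcer1a stood nearly level in Scr 1. Of the 7 tested, 4 were highest in KD 1, where 21.9% of all genes tested were, and 3 in KD 2, where 32.5% were. Both knockdown libraries stood above both Scr libraries for 2 of the 7, Ms4a2 and Gzmb, a share near the 24.5% of all genes tested. None of the 7 genes tested passed edgeR (quasi-likelihood, Benjamini-Hochberg adjusted p under 0.05), where 0% of all genes passed, and none passed DESeq2 (6.85% of all genes) or limma-voom. At an unadjusted edgeR p under 0.05, Ms4a2 and Gzmb were counted, both higher in miR-99 KD, where 5.97% of all genes were counted as higher and 9.63% as lower. Calls for the 9 genes turned on single libraries and on the filter. Without KD 1 edgeR called Cpa3 and Gzmb, where 6.15% of all genes were called. Without KD 2 it called Mcpt8, Prss34, Hdc, Prg2 and Epx, where 2.66% were. With all libraries and no filter on low counts it called Mcpt8, Prss34, Ms4a2, Prg2 and Epx, where 4.18% were. The median log2 difference of the 7 genes was 1.66 (miR-99 KD minus Scr), beside 0.02 over all genes tested. It leaves out Prss34 and Epx, which did not pass the filter on low counts.

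**Figure D1:**
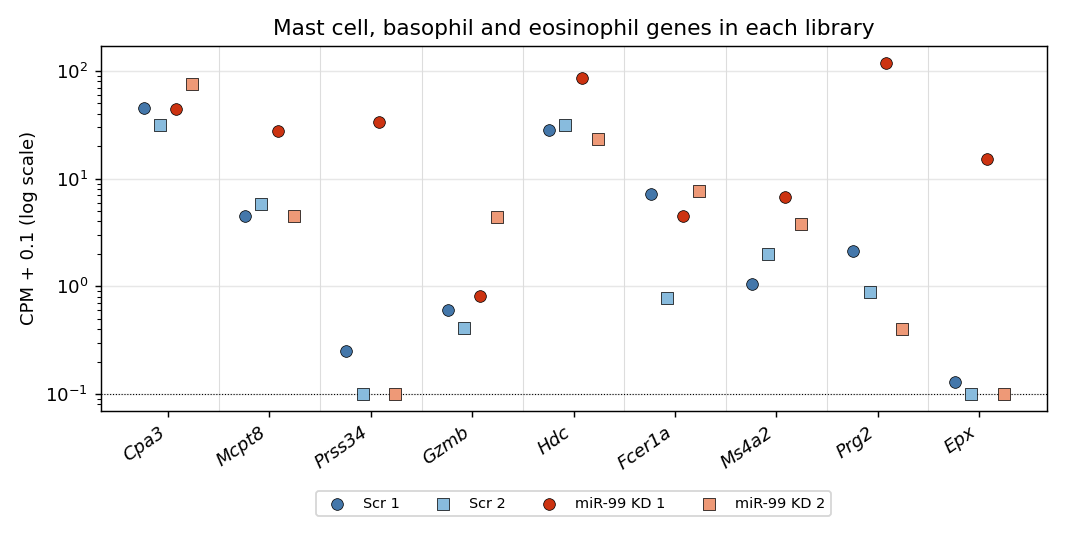
Level of each of the 9 genes in each of the 4 libraries, as CPM plus 0.1 on a log axis; each point is 1 library and the dotted line marks 0 counts. Prss34, Prg2 and Epx stand far higher in miR-99 KD 1 than in the other 3 libraries, whereas Cpa3 stays within 31.7 to 75.8 CPM.

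Prg2 (ENSMUSG00000027073, chromosome 2), major basic protein of the eosinophil granule, showed the widest range. It stood at 2.03 CPM in Scr 1, 0.790 in Scr 2, 119.5 in KD 1 and 0.301 in KD 2, from 68, 23, 3154 and 8 counts. The miR-99 KD libraries thus lay at both ends of the range, 397-fold apart, with both Scr libraries between them. The log2 difference between the groups was 5.39 ± 2.25 (SE, n = 2 per group), at an adjusted p of 0.337 in edgeR and 0.179 in DESeq2. Without KD 1 it turned to -2.22.

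Epx (ENSMUSG00000052234, chromosome 11), eosinophil peroxidase, makes hypobromous acid inside the eosinophil granule. It had 397 counts in KD 1, 1 in Scr 1 and 0 in both Scr 2 and KD 2. Its level in KD 1 was 15.0 CPM with a 95% exact Poisson interval of 13.6 to 16.6. That level was 133-fold a floor of 3 counts in KD 2, or 0.113 CPM. The interval for the 0 counts of KD 2 reached higher than that floor, to 0.139 CPM. Epx RNA was therefore seen in 1 library and was near or below detection in the other 3.

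Prss34 (ENSMUSG00000056399, chromosome 17), a serine protease of basophils also called mast cell protease 11, showed the same split. It had 873 counts in KD 1, 5 in Scr 1 and 0 in Scr 2 and in KD 2. The level in KD 1, 33.1 CPM (95% interval 30.9 to 35.4), was at least 293-fold higher than in KD 2 by the same floor.

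Mcpt8 (ENSMUSG00000022157, chromosome 14), the serine protease that marks mouse basophils, was present in every library. It stood at 4.39 and 5.73 CPM in the Scr libraries, 27.6 in KD 1 and 4.44 in KD 2. The library KD 2 thus lay inside the Scr range and KD 1 stood 6.20-fold above it. The log2 difference was 1.66 ± 0.83 (SE, n = 2 per group, edgeR adjusted p = 0.390), and -0.19 without KD 1.

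Prg2, Epx, Prss34 and Mcpt8 were the 4 of the 9 genes that stood at least 4-fold higher in KD 1 than in every other library. Prss34 and Epx are not among the genes tested. Of the 7 tested, 2 did so, Prg2 and Mcpt8, where 86 of all genes tested, or 0.561%, did, and Prg2 stood 58.8-fold above the next library.

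Hdc (ENSMUSG00000027360, chromosome 2), histidine decarboxylase, makes histamine from histidine. It stood at 27.9 CPM in Scr 1, 31.4 in Scr 2, 86.0 in KD 1 and 23.1 in KD 2. Again KD 1 was the highest library and KD 2 the lowest. The log2 difference was 0.88 ± 0.60 (SE, n = 2 per group, edgeR adjusted p = 0.509), and -0.36 without KD 1.

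Cpa3 (ENSMUSG00000001865, chromosome 3), carboxypeptidase A3, is the abundant exopeptidase of mast cell granules and is also transcribed in early progenitors. It stood at 45.0 CPM in Scr 1, 31.7 in Scr 2, 44.5 in KD 1 and 75.8 in KD 2. KD 2 stood 1.70-fold above KD 1, which lay level with Scr 1. The difference on the log2 scale was 0.65 ± 0.32 (SE, n = 2 per group, edgeR adjusted p = 0.385). Without KD 1 it was 0.98 and passed edgeR at an adjusted p of 0.0451, over a range of 0.0451 to 0.935 across the alternatives.

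Gzmb (ENSMUSG00000015437, chromosome 14), granzyme B, is a protease of cytotoxic lymphocytes that some mast cells and basophils also store. It stood at 0.508 CPM in Scr 1, 0.309 in Scr 2, 0.720 in KD 1 and 4.33 in KD 2, from 17, 9, 19 and 115 counts. The groups did not overlap, but KD 1 lay close to Scr 1, and their 95% Poisson intervals, 0.434 to 1.12 and 0.296 to 0.813 CPM, did. The log2 difference was 2.61 ± 0.999 (SE, n = 2 per group, edgeR adjusted p = 0.313), and 0.81 without KD 2. Without KD 1 it passed edgeR at an adjusted p of 0.0281, over a range of 0.0281 to 0.928 across the alternatives. In KD 2 the defining T and NK cell markers Cd3e, Cd3g, Trbc2, Cd8a, Ncr1, Klrd1 and Eomes, 7 of 12 on the list, had 0 counts, while Nkg7 had 3019, Cd4 15, Klrb1c 13, Cd2 9 and Cd3d 3. The list summed to 115 CPM there and to 156 to 211 CPM in the other 3 libraries, and its part in the level of Gzmb was not tested. Of the 9 other granzyme and perforin genes, Gzmm alone had counts in that library, with 17, and Gzma and Prf1 had 0.

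Fcer1a (ENSMUSG00000005339, chromosome 1), the chain of the IgE receptor that binds IgE, differed most within the Scr group. It stood at 7.17 CPM in Scr 1, 0.687 in Scr 2, 4.43 in KD 1 and 7.64 in KD 2. Scr 2 was thus the only low library, 10.4-fold below Scr 1. The log2 difference was 0.62 ± 1.01 (SE, n = 2 per group, edgeR adjusted p = 0.799). It was -0.27 without Scr 2 and 3.10 without Scr 1.

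Ms4a2 (ENSMUSG00000024680, chromosome 19) is the chain that amplifies the receptor's signal. On log2(CPM + 0.5), it was the only gene of the 7 tested whose groups differed by more than the gap within either group. For Gzmb the log2 gap between the knockdown libraries without that offset was 2.59, beside an edgeR difference of 2.61. Ms4a2 stood at 0.956 CPM in Scr 1, 1.89 in Scr 2, 6.60 in KD 1 and 3.69 in KD 2, from 32, 55, 174 and 98 counts. The groups did not overlap. Their log2 difference was 1.85 ± 0.55 (SE, n = 2 per group), at an adjusted p of 0.251 in edgeR and 0.0830 in DESeq2. It stayed between 1.37 and 2.41 when each library was left out in turn, with edgeR adjusted p of 0.0438 to 0.919 over all alternatives. The gamma chain Fcer1g, shared with Fc receptors of other myeloid cells, stood at 62.8, 26.9, 124.8 and 40.5 CPM in the same order of libraries, so the 3 chains of the receptor followed 3 different orders.

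**Figure D2:**
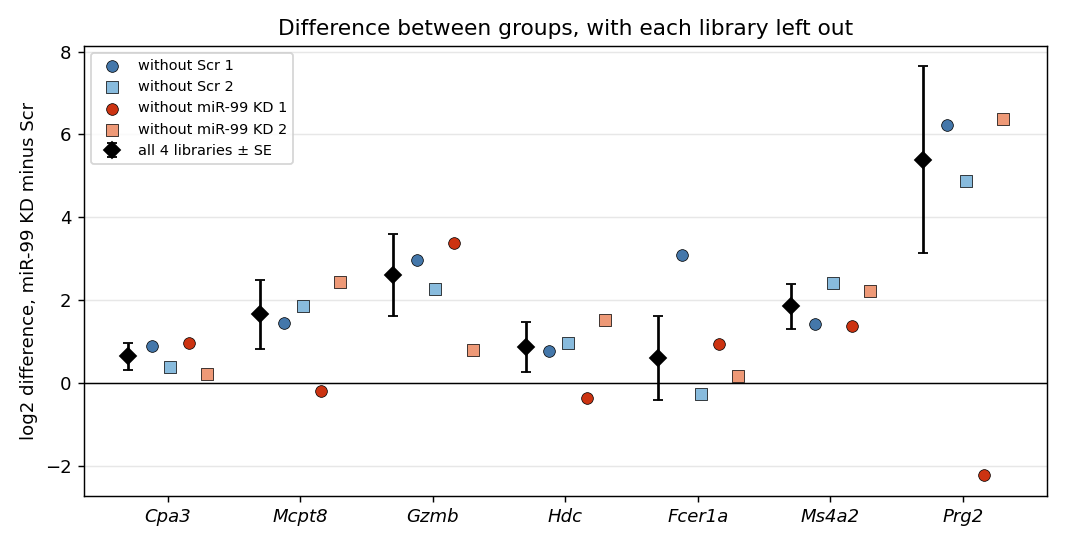
Log2 difference between the groups (miR-99 KD minus Scr) for the 7 genes tested, from all 4 libraries (diamonds, ± SE) and with each library left out (coloured points). The values of Mcpt8, Hdc and Prg2 cross 0 without miR-99 KD 1 and that of Fcer1a without Scr 2, whereas Cpa3, Gzmb and Ms4a2 stay above 0.

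The gap between the libraries of a group was large for these genes. On log2(CPM + 0.5), the larger within-group gap exceeded the difference between the group means in 6 of the 7 genes tested, all but Ms4a2, where 62.1% of all genes tested did so. The median gap between the miR-99 KD libraries was 1.88 for the 7 genes and 0.30 over all genes, and that between the Scr libraries 0.50 and 0.21. The direction of the gap was not shared, with Prg2, Mcpt8, Hdc and Ms4a2 higher in KD 1 and Cpa3, Gzmb and Fcer1a higher in KD 2.

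Per length, as TPM, which divides counts by the exon length of each gene and scales each library to the same total, Cpa3 was the most abundant of the 9 in 3 libraries, at 99.9 in Scr 1, 75.2 in Scr 2 and 159 in KD 2. In KD 1 the most abundant was Prg2, at 426, ahead of Cpa3, Mcpt8 and Prss34 at 87.7, 82.5 and 81.0. Those 3 were nearly level there, and their counting intervals overlapped. Hdc followed at 40.2, although by CPM it stood above Cpa3 in that library, since its exons span 6389 bases and those of Cpa3 1517. Gzmb was the lowest there.

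Mast cell proteases outside the 9 divided the libraries across the groups. Mcpt4 and Cma1, chymases of connective tissue mast cells, and Tpsb2, a tryptase of the same cells, had counts in Scr 1 and KD 2 and were at or near 0 in Scr 2 and KD 1. Tpsb2 had 1264 counts in Scr 1, 677 in KD 2 and 0 in the other 2 libraries. Mcpt4 had 303 and 319 counts in Scr 1 and KD 2 and 0 in the others, and Cma1 394 and 583, with 4 in KD 1 and 0 in Scr 2. The 9 genes of this list summed to 59.3 CPM in Scr 1, 0.0343 in Scr 2, 0.227 in KD 1 and 61.3 in KD 2. Of the 3 tested, none passed edgeR or DESeq2 and 0 were counted at an unadjusted edgeR p under 0.05. Mcpt1, Mcpt9 and Cma2 had 0 counts in all 4 libraries. Tpsb2 and Tpsab1 are related tryptases, and reads with several alignments are outside the gene counts, so any read common to both was not counted. Fcer1a was likewise highest in KD 2 and Scr 1. Cpa3 was highest in KD 2, with Scr 1 and KD 1 level. The libraries with mast cell protease counts were thus not those with Prg2, Epx and Prss34.

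Most other eosinophil genes with counts were highest in KD 1, whereas Ccr3 was highest in Scr 1. Prg3, a second major basic protein, had 188 counts in KD 1, 7 in Scr 2 and 0 in the other 2. The eosinophil ribonucleases Ear1 and Ear6 had 155 and 149 counts in KD 1, 27 and 13 in Scr 2, 1 each in Scr 1 and 0 in KD 2. Ear2 stood at 16.0 CPM in KD 1 and at 1.96 to 4.21 in the others. The Ear genes are close copies of each other, so their separate values are uncertain. Siglecf, a sialic acid receptor of eosinophils, stood at 6.84 and 9.72 CPM in the controls and 13.9 and 10.2 in the knockdown. It was the only gene of the 7 tested in this list with both knockdown libraries above both controls, where 24.5% of all genes tested were. Alox15, a lipoxygenase, stood at 12.3 CPM in KD 1, 6.83 in Scr 2, 1.88 in Scr 1 and 0 in KD 2. Ccr3, the eotaxin receptor, was highest in Scr 1, at 20.3 CPM against 16.4 in KD 1, 13.1 in KD 2 and 8.24 in Scr 2. Of the 7 genes of this list that were tested, 6 were highest in KD 1, where 21.9% of all genes tested were. None of the 7 passed edgeR or DESeq2, with 0 at an unadjusted edgeR p under 0.05. The basophil surface and cytokine list summed to 69.4 CPM in Scr 1, 66.6 in Scr 2, 58.9 in KD 1 and 44.4 in KD 2. This sum was not highest where Mcpt8 and Prss34 were, but most of it came from Cd244a, Ccr3 and Cd200r1 in every library. Cd244a, an activating or inhibitory receptor also found on NK cells, had 30.5 and 46.7 CPM in the controls and 26.9 and 22.1 in the knockdown. Cd200r1, an inhibitory receptor, had 12.8 and 10.2 against 9.63 and 6.48, and Il6, a cytokine, had 0.867 and 0.549 against 2.77 and 1.20. Itga2, an integrin chain, was highest in Scr 1, with 96 counts against 18 in Scr 2, 27 in KD 1 and 2 in KD 2. Cd200r3, an activating receptor, was highest in KD 1, with 40 counts against 16, 2 and 4 in Scr 1, Scr 2 and KD 2. Of the 7 basophil surface and cytokine genes tested, 0 passed either test and 0 were at an unadjusted p under 0.05. Il4 had 6 to 50 counts and Il13 had 0 in every library.

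**Figure D3:**
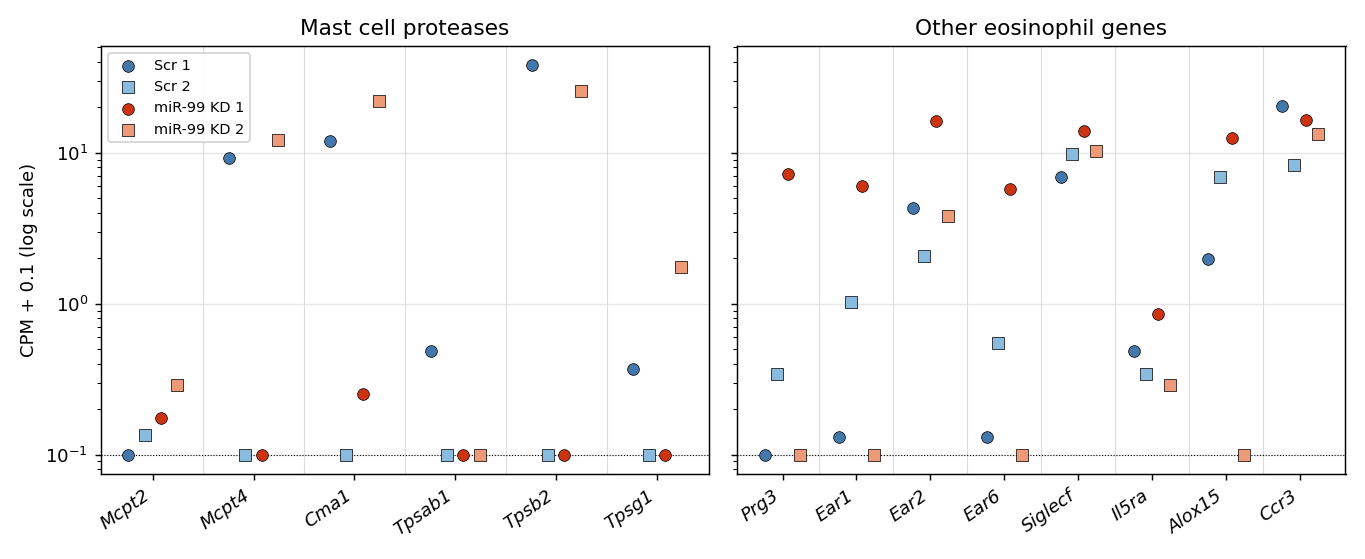
Mast cell proteases (left) and other eosinophil genes (right) in each of the 4 libraries, as CPM plus 0.1 on a log axis; each point is 1 library and the dotted line marks 0 counts. Mcpt4, Cma1 and Tpsb2 are high in Scr 1 and miR-99 KD 2, whereas Prg3, Ear1, Ear2 and Ear6 are highest in miR-99 KD 1.

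The signalling genes behind the IgE receptor were mostly at lower levels in the knockdown libraries. Of 14 genes, 10 had both knockdown libraries below both controls, where 26% of all genes did so, and Grap2 alone had both above. None passed edgeR over all genes, 7 were lower at an unadjusted p under 0.05 (9.63% of all genes), and DESeq2 called 4 lower (6.85% of all genes in either direction), namely Plcg1, Fyn, Lat2 and Lat. Plcg1, a phospholipase that raises calcium after receptor binding, had 74.3 and 92.1 CPM in the controls and 31.9 and 31.7 in the knockdown (log2 difference -1.39 ± 0.18, SE, n = 2 per group). Fyn, a kinase at the receptor, had 86.5 and 89.7 CPM in the controls and 49.9 and 46.0 in the knockdown. These genes also serve other receptors of stem cells and lymphocytes. Their median log2 difference was -0.52, beside 0.02 over all genes; whether it differs from that of Fcer1a and Ms4a2 was not tested.

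Among 12 genes of histamine storage, lipid mediators and granule matrix, DESeq2 called Pla2g4a lower and edgeR none, with 2 lower at an unadjusted p under 0.05. Over all genes DESeq2 called 6.85% in either direction, and 9.63% were lower at an unadjusted edgeR p under 0.05. Of the 12, 4 had both knockdown libraries below both controls, where 26% of all genes did, and 0 had both above, where 24.5% did. Pla2g4a, which frees arachidonic acid, had 130.9 and 135.6 CPM in the controls and 63.0 and 87.4 in the knockdown. Slc18a2, the transporter that loads histamine into granules, had 92.3 and 65.7 CPM in the controls and 34.2 and 57.0 in the knockdown, lower in both, whereas Hdc was not. Ndst2, which sulphates heparin, had 81.4 and 89.3 CPM in the controls and 75.3 and 76.7 in the knockdown. Alox5, the first enzyme of leukotriene synthesis, stood at 96.0 CPM in KD 1 and 14.2 to 25.6 in the others. Tph1, which starts serotonin synthesis, had 27 counts in Scr 1, 60 in KD 2 and 0 in the other 2, as the mast cell proteases did.

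Of 11 growth factor and cytokine receptors, DESeq2 called Il1rl1 higher and Kit and Il18r1 lower, and edgeR none, with 1 higher (5.97% of all genes) and 3 lower (9.63%) at an unadjusted p under 0.05. DESeq2 called 6.85% of all genes. Il4ra, a receptor chain for interleukin-4, had 1072 and 1488 counts in the controls and 633 and 457 in the knockdown. Il18r1, the interleukin-18 receptor, had 351 and 414 counts against 139 and 116. Il1rl1, the interleukin-33 receptor of mast cells and basophils, had 41.7 and 45.4 CPM in the controls and 64.4 and 127.8 in the knockdown. It was highest in KD 2, as Cpa3 and Gzmb were. The difference on the log2 scale was 1.14 ± 0.34 (SE, n = 2 per group, edgeR adjusted p = 0.251, DESeq2 adjusted p = 0.0196). Il3ra, a receptor chain for the basophil growth factor interleukin-3, stood at 6.33 to 7.74 CPM, and Il5ra, that for the eosinophil growth factor interleukin-5, at 0.188 to 0.758.

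Of 14 transcription factors, DESeq2 called Gata1, Tal1 and Xbp1 higher and edgeR none, with 3 higher (5.97% of all genes) and 1 lower (9.63%), which was Fli1, at an unadjusted p under 0.05. DESeq2 called 6.85% of all genes. Gata1, needed for eosinophils, mast cells and red cells, had 176 and 183 CPM in the controls and 281 and 246 in the knockdown. Gata2, which acts earlier in the same lineages, had 276 and 228 CPM in the controls and 219 and 258 in the knockdown. Cebpe, a factor of late neutrophils and eosinophils, stood at 63.8 CPM in KD 1 and at 10.04, 9.82 and 8.92 in Scr 1, Scr 2 and KD 2. Mitf, a factor of mast cells, stood at 2.12 to 4.90 CPM. Beside these factors, 8 of 12 erythroid markers lay above both controls in both knockdown libraries (as did 24.5% of all genes), at sums of 11807 and 9774 CPM in Scr 1 and Scr 2 and 16470 and 16547 in KD 1 and KD 2, and 7 of 9 sort gate and stem cell markers lay below (as did 26%). Their part in the levels of Gata1, Kit or the 9 genes was not tested.

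Promoter windows are shown for the genes that hold the GATA-type motif AGATAA, because Gata1 and Gata2 are the shared factors of these lineages. Other forms of the GATA motif were not searched, and windows not shown may hold them, as that of Hdc does with TGATAG. Windows run from 250 bases before to 50 after the start of the gene (RefSeq, GRCm38.p6), and 8 of the 9 genes matched, all but Prg2. The first bases of no GENCODE M21 transcript of Gzmb were found in its window, so its start there is uncertain. AGATAA or its reverse TTATCT, searched on both strands and given in capitals, was in 4 of the 8, where 11.2% of 32851 windows held it. The 4 are Cpa3 (chr3:20242132-20242431, minus strand), Prss34 (chr17:25298144-25298443, plus strand), Fcer1a (chr1:173227180-173227479, minus strand) and Ms4a2 (chr19:11623670-11623969, minus strand).
Cpa3: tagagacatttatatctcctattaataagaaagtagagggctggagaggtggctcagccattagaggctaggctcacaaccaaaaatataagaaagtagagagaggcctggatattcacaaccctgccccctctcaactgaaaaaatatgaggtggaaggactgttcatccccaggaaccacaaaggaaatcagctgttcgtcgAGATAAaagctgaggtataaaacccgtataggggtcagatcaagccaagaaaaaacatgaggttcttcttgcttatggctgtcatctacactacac
Prss34: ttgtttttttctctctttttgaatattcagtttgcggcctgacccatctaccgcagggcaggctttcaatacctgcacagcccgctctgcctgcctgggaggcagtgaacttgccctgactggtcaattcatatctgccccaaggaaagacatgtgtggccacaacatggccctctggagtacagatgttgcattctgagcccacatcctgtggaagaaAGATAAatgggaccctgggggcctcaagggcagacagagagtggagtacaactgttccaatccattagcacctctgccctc
Fcer1a: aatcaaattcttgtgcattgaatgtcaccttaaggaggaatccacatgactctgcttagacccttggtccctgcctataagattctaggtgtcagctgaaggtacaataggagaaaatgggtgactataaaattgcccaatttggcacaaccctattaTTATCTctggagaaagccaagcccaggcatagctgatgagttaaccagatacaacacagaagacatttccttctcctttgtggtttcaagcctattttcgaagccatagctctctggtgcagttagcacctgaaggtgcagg
Ms4a2: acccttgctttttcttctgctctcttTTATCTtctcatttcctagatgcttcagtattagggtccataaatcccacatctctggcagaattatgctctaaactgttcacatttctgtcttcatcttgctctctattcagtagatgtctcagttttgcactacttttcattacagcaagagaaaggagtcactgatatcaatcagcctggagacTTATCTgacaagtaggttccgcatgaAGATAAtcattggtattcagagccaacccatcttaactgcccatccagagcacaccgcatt
The match began 46 bases before the start in Cpa3, 31 in Prss34 and 92 in Fcer1a, and Ms4a2 held 3, which began 224, 37 and 11 bases before it. The C/EBP-type motif TTGCNNAA was in 1 of the 8 windows, that of Fcer1a, and in 10.8% of all windows. Genes with AGATAA or TTATCT did not share a pattern over libraries, since Cpa3 and Fcer1a were highest in KD 2 and Prss34 and Ms4a2 in KD 1.

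Markers of other cell types stood apart in the same library as Prg2, Epx, Prss34, Mcpt8 and Hdc. All 12 neutrophil markers were highest in KD 1, with a summed level of 26354 CPM there, 3778 in KD 2, and 6012 and 2827 in Scr 1 and Scr 2, and none was at 0 in any library. All 12 B cell markers were highest there too, at a sum of 378 CPM against 115 in KD 2, and 98.4 and 81.7 in Scr. Of these 12, 6 had both knockdown libraries above both controls, where 24.5% of all genes tested did. No B cell marker passed edgeR, 4 were higher at an unadjusted edgeR p under 0.05 (5.97% of all genes), and DESeq2 called 3 higher (6.85% of all genes in either direction), namely Ebf1, Vpreb1 and Igll1. Of 10 granulocyte-monocyte progenitor markers 9 were highest in KD 1, at a sum of 7335 CPM against 3403 to 4901 in the other 3 libraries. Macrophage markers did not follow, at a sum of 581 CPM in Scr 1, 240 in Scr 2, 579 in KD 1 and 398 in KD 2. Nearly all of the T and NK cell sum came from Nkg7, and Ncr1 was at 0 in all 4 libraries. The part of these cell types in the levels of the 9 genes was not tested.

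**Figure D4:**
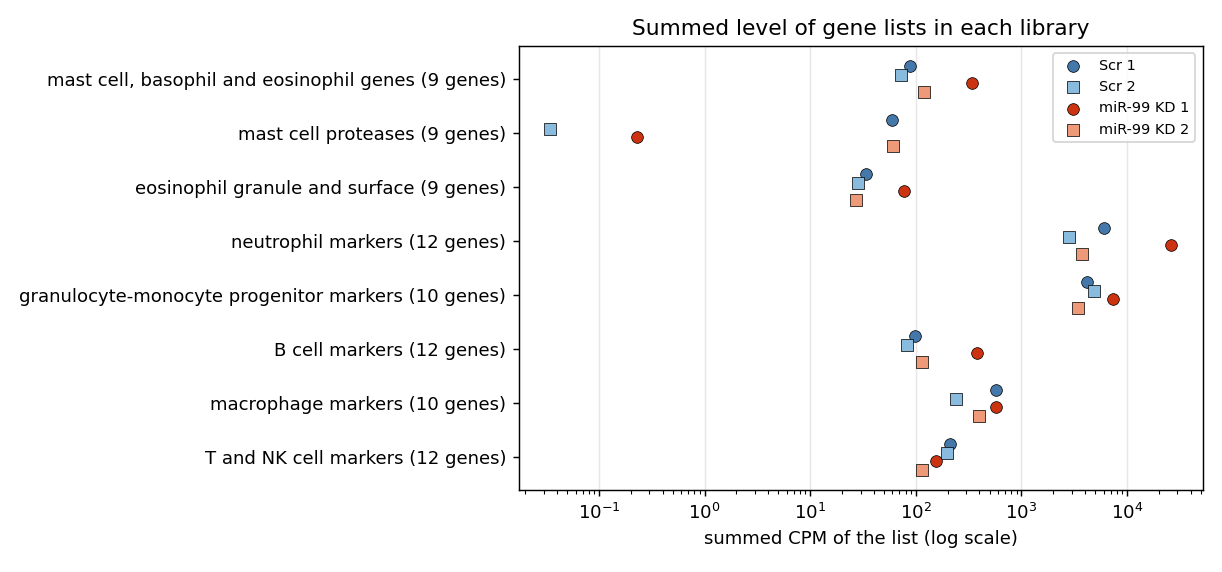
Summed CPM of each gene list in each of the 4 libraries, on a log axis; each point is 1 library. The 9 genes, the eosinophil list, the neutrophil markers and the B cell markers are highest in miR-99 KD 1, whereas the mast cell proteases are at 59.3 and 61.3 CPM in Scr 1 and miR-99 KD 2 and below 1 CPM in the other 2.

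Genes with the pattern most like the 9 were sought by the root mean square distance of centred log2(CPM + 0.5) to the median profile of the 7 tested, among 13173 other genes with a mean of at least 1 CPM. The median profile stood at -0.55 in Scr 1, -0.56 in Scr 2, 1.15 in KD 1 and 0.39 in KD 2. The nearest were Pmaip1, Arl5c, Hopx, Lmcd1 and Dzank1, at distances of 0.11 to 0.21. The 7 genes themselves lay farther from their own median, at 0.30 for Ms4a2 to 2.38 for Prg2. Over 4 libraries such likeness is a description of these libraries only.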

How the data were processed

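The authors deposited a table of unnormalized gene counts for each library, with Ensembl identifiers. The submitters' processing notes name STAR, Picard, HTSeq, DESeq2 and the build mm9; versions, annotation and strand setting are not stated there or in the labels. Per the labels' protocols, libraries were made from total RNA with SMARTer amplification, so PCR copies may be counted. Rows that name no gene were left out: reads without a feature were 8.31% to 13.8% of all reads, and reads with several alignments 18.0% to 21.9%. Symbols matched 44585 of 45232 rows (GENCODE M21).

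The 2 Scr and 2 miR-99 KD libraries were compared with the quasi-likelihood test of edgeR 4.0.16 (R 4.3.3) on all genes kept by filterByExpr, with TMM scaling, no replicate block and Benjamini-Hochberg adjustment at 0.05, two-sided. Lists were described by counts, with no set test. The 9 genes and the lists were chosen with earlier results of these data known. All 9 were named whatever their values; of each other list up to 4 genes with the smallest edgeR p and the defining markers at 0 were named by rule, and other genes of the lists that are named were chosen after their values were seen. Marker lists of other cell types are given by counts and sums. Alternatives were DESeq2 1.42.0, limma-voom (limma 3.58.1), 3 scalings, 2 filters, an adjusted p threshold of 0.10, a replicate block and each library left out in turn. The fits were tested on simulated data.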

Additional observations from a re-analysis of the deposited data

How the results depend on the processing

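With all 4 libraries edgeR called 0 genes, and of the 9 genes none. DESeq2 called 887 genes (6.85% of those with an adjusted p), with 0 of the 9 and 11 of the 66 genes tested in the related lists. Without a filter on low counts edgeR called 1064 genes (4.18% of those tested). They held 5 of the 9, Mcpt8, Prss34, Ms4a2, Prg2 and Epx, and 18 of the 71 genes tested in the related lists. The cause was not tested. Leaving out each library, edgeR called 0 to 1013 genes, 0 to 5 of the 9 and 0 to 11 of the related lists. Calls among the 9 came only without KD 1 or without KD 2. Prss34 and Epx entered the fit without KD 2 only through KD 1, where they are high. In such a fit the lone library takes its spread from the other group. The number of the 9 with every knockdown library above every Scr library was 2 to 7 in these fits, where fewer libraries have to be ordered. The share over all genes was not counted in these fits, so the number cannot be set beside the 24.5% of the 4 libraries. The median log2 difference ran from 0.95 without KD 1, over 7 genes, to 2.97 without Scr 1, over 9 genes. Prss34 and Epx passed the filter without Scr 1, Scr 2 or KD 2, so the gene set changed as well as the libraries. The median was 0.74 over the 2 genes left by a filter at 10 CPM in 2 libraries. The log2 difference turned in sign without 1 library for Mcpt8 (-0.19 to 2.45), Hdc (-0.36 to 1.54) and Prg2 (-2.22 to 6.38), each without KD 1, and for Fcer1a (-0.27 to 3.10), without Scr 2. The other scalings, limma-voom and the threshold of 0.10 changed no call.

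A replicate block in edgeR gave 0 genes called and a median of 1.28 for the 7 genes. The deviations from the group means of libraries with the same number correlated at 0.11, over 2 pairs, which was too few to treat the numbers as a pairing. Levels below 0.0897 to 0.114 CPM, 3 counts per library, lay under the chosen floor and were taken as too low to measure, although counts below it were seen, as for Epx in Scr 1.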

Other observations

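A search of all 45232 gene rows, chosen after the values were seen, counted genes with at least 20 counts in both of 2 libraries and at most 4 in the other 2. High in Scr 1 and KD 2 were 16 genes, among them the mast cell genes Mcpt4, Cma1, Tpsb2 and Tph1. They also included Mrgprb2, the receptor through which drugs and peptides activate connective tissue mast cells, with 46 and 57 counts in those libraries and 0 in the others, Mrgprb1 of the same family, with 76 and 83 and 0, and the serotonin transporter Slc6a4, with 22 and 39, 1 in Scr 2 and 0 in KD 1. The opposite split, high in Scr 2 and KD 1, held 8 genes, among them Ear1 and Siglech, a receptor of plasmacytoid dendritic cells with 36 and 22 counts there and 4 and 0 in the others. The other splits held 29 genes (Scr 1 and KD 1), 1 (Scr 2 and KD 2), 6 (both miR-99 KD) and 23 (both Scr).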
